A study of Mus musculus with 12 samples.

Results

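The windows described here lay on annotated exons or 5′ untranslated regions (5′ UTRs) and were accessible sites of both genotypes in a table of H3K27ac from mouse forebrain microglia. A window was taken when its HOMER annotation began with exon or 5′ UTR and when the site lists of both genotypes named it, so no H3K27ac value entered the choice. This gave 1672 of 67822 windows (2.47%), each 1000 bp wide. Of these, 520 were annotated as 5′ UTR, 444 of them in exon 1, and 1152 as exon, with 238 in a first exon, 668 in an inner exon and 246 in a last exon. A further 708 exon or 5′ UTR windows stood in 1 list only, 197 in the knockout list and 511 in the wild-type list, and were left out.

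The groups were microglia of Nlrp3 knockout mice (KO; Cias1-knockout animals from Millennium Pharmaceuticals, the design text's Nlrp3-/-) and of wild-type mice (WT) on a C57BL/6N background. Each had 3 H3K27ac libraries and 3 input chromatin libraries, and no treatment is given for either. The cells were CD11b-positive cells taken with magnetic beads from dissociated brain after myelin removal, a gate that also admits other myeloid cells. The labels give no age or sex and do not say whether replicates came from separate animals, so the p-values below measure only the spread between these samples, which may be technical.

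H3K27ac is acetylation of lysine 27 on histone H3, a mark of active promoters and enhancers that is laid down mainly by p300 and CBP. At active genes it flanks the nucleosome-depleted start site, so a 5′ UTR or a first exon often lies inside the promoter's acetylated domain, whereas an exon deep in a gene lies in transcribed chromatin, where acetylation usually marks an enhancer. Microglia are the resident macrophages of the brain, and NLRP3 is the sensor of the inflammasome that activates caspase-1 and the release of IL-1 beta and IL-18.

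The 3 KO libraries held 4531757, 5028129 and 4926729 H3K27ac tags and the 3 WT libraries 3726550, 4492763 and 4233044. Levels are CPM, tags scaled to a common total of all tags in the library. The targeted gene had no window among the 1672. At its start site (chr11:59542134-59543134, mm10) the KO libraries had 1, 0 and 16 H3K27ac tags against 180, 180 and 195 in WT, so the labels and the tags matched. Chromosome Y windows, 7 in all, held 231, 193 and 280 H3K27ac tags in KO, but 12, 264 and 227 in WT. In the input libraries they held 97, 43 and 58 tags in KO and 1, 112 and 57 in WT. WT replicate 1 thus stood apart in input as well as in H3K27ac, and the cause was not tested. None of the 1672 windows lay on chromosome Y and 24 lay on chromosome X. Over the 6 H3K27ac libraries the median promoter of a homeostatic microglia gene had 10.1 times the input level, that of an astrocyte marker 2.25 times (5 of 15 genes had a promoter window) and the single neuron marker promoter, of 16 genes, 1.17 times. The medians were 4.48 times for endothelial and mural markers (3 of 15 genes), 2.66 for monocyte and neutrophil markers (4 of 18, up to 35.6 CPM), 2.47 for lymphocyte (2 of 15), 1.55 for border macrophage (8 of 15) and 1.45 for oligodendrocyte markers (4 of 16). The summed level of the 5 astrocyte promoters ranged over 13.1 to 41.7 CPM in KO and 18.8 to 35.4 CPM in WT.

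Promoter sequence is held by some of these windows. RefSeq promoters (GRCm38.p6, the mm10 build, 250 bases before to 50 after a gene start) lay wholly inside 324 of the 1672 windows, 353 promoters in all. The bases around the gene start are shown for 6 windows that the results below turn on, 15 bases before the start in lower case and the transcribed bases in capitals. They are the windows of Cd300c2, Sppl2a and Zc3hav1 (among the 12 windows named below for their p between genotypes), of Zfp869 and Agmo (highest H3K27ac) and of Casp1 (the inflammasome's protease).
Cd300c2, chr11:115001866-115001895, minus strand: gtcgcagagggtggaCAACCTGACCGGAAA
Sppl2a, chr2:126933221-126933250, minus strand: cagaaaggaaactgaAACCCGAAGCTCCAG
Zc3hav1, chr6:38354589-38354618, minus strand: cccccaggatgcgtcACTCTCCTCAGGCTC
Zfp869, chr8:69716888-69716917, minus strand: caccagacgagacgaGAGGTGGGTCCTATC
Agmo, chr12:37241624-37241653, plus strand: tcagagtgaactttcACTTGTTCAAAAACT
Casp1, chr9:5298502-5298531, plus strand: ttcctttcctgagctCTTCCAAGTGTTGAA

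Short motifs were searched on both strands of the 353 promoters. PU.1, the ETS-family factor that defines the macrophage lineage, is known to bind GAGGAAGT. Those letters were in 16 of the 353 promoters (4.53%), in 3.59% of the 9764 promoters inside promoter windows of both lists and in 3.20% of all 32851 RefSeq promoters. They stood upstream of Ssu72, a phosphatase of RNA polymerase II, and of Pycard, the ASC adaptor of the inflammasome, where they read in reverse. In both stretches the capitals mark the match.
Ssu72, chr4:155704787-155704816, plus strand: acgggctcacaGAGGAAGTgacgtgcttct
Pycard, chr7:127993893-127993922, minus strand: gtccccaccccACTTCCTCcaccaacccac
CCGGAAGT, an ETS motif that shares GGAAGT with the PU.1 letters, was in 5.38% of the 353 promoters, 10.1% of those in promoter windows and 3.89% of all. For the NRF1 letters GCGCATGC the shares were 4.53%, 6.19% and 2.71%, for the YY1 letters AAGATGGCG 1.98%, 3.55% and 1.40%, for the cyclic AMP response element TGACGTCA 1.70%, 3.77% and 1.79%, and for TATAAA 5.95%, 5.69% and 13.6%. The 353 promoters had a median GC content of 58.7% and 17 CpG, against 62.3% and 23 in promoter windows and 52.7% and 7 in all RefSeq promoters. A match is a run of letters and not a measured binding site.

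The level of H3K27ac differed with position in the gene. The median 5′ UTR window had 6.81 ± 0.459 CPM in KO and 7.18 ± 0.429 CPM in WT (SD, n = 3 libraries each). First-exon windows had 4.80 ± 0.384 CPM in KO and 4.81 ± 0.519 CPM in WT. Inner exons had 2.14 ± 0.286 CPM in KO and 2.00 ± 0.124 CPM in WT, and last exons 1.77 ± 0.193 CPM in KO and 1.92 ± 0.0690 CPM in WT. First-exon and 5′ UTR windows (758) stood above later-exon windows (914) by 1.39 ± 0.0690 on the log2 scale (SD over 6 libraries), 2.63-fold, in 6 of 6 libraries. The exact two-sided sign-flip permutation test over the 6 libraries gave p = 0.03125, the smallest it can give, and 0.0391 after Benjamini-Hochberg adjustment over the 5 such comparisons made. Position went with distance to the nearest start site. Within 1 kb lay 463 of 520 5′ UTR, 208 of 238 first-exon, 53 of 668 inner-exon and 9 of 246 last-exon windows. The first-exon and inner-exon medians within 1 kb were 5.08 and 3.26 CPM in KO, and 5.04 and 3.61 CPM in WT. Beyond 1 kb they were 3.23 and 2.07 CPM in KO, and 3.42 and 1.93 CPM in WT. The part of distance in the 2.63-fold difference was not tested.

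**Figure D1:**
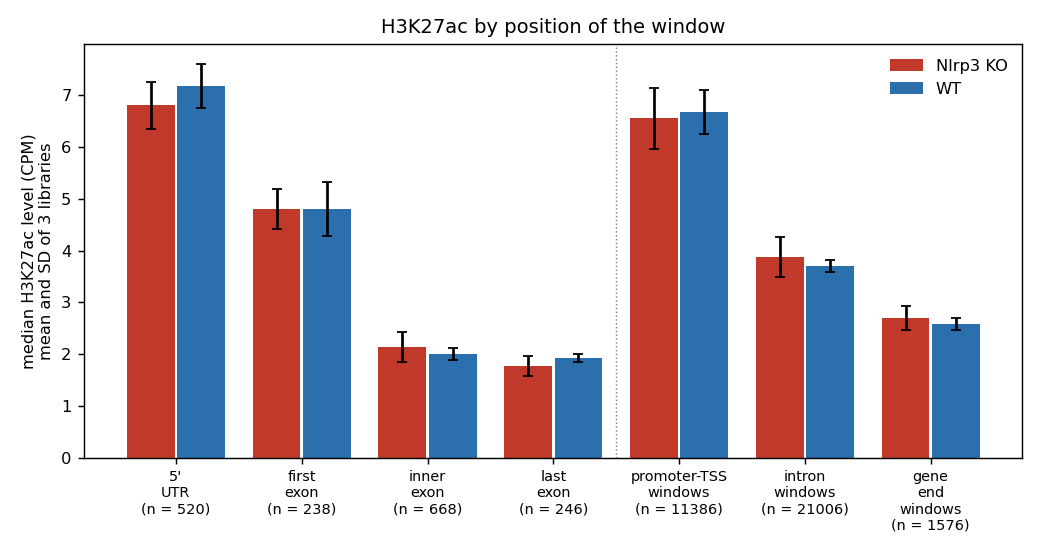
Median H3K27ac level (CPM) of exon and 5′ UTR windows by position, left of the dotted line, and of promoter, intron and gene-end windows of both lists, right of it. Bars are the mean and error bars the SD of 3 KO (red) or 3 WT (blue) libraries. The 5′ UTR windows stand at 6.81 CPM in KO and 7.18 CPM in WT, and last exons at 1.77 and 1.92 CPM.

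As a whole the 1672 windows had less H3K27ac than promoter windows, and their difference from gene ends varied with distance to the start site. Their median was 3.59 ± 0.487 CPM in KO and 3.54 ± 0.224 CPM in WT. The 11386 promoter windows of both lists had 6.56 ± 0.589 CPM in KO and 6.68 ± 0.428 CPM in WT, and the difference, exon and 5′ UTR minus promoter, was −0.81 ± 0.0438 on the log2 scale in the same direction in 6 of 6 libraries (exact permutation p = 0.03125, adjusted 0.0391). Against the 1576 windows at gene ends (transcription termination sites and 3′ UTRs), of which 71 lay within 500 bp of a start site against 583 of the 1672, the difference pooled over all distances was 0.37 ± 0.0749, again in 6 of 6 libraries (exact permutation p = 0.03125, adjusted 0.0391). Split at 1 kb, a split chosen after seeing the data, it was 0.05 within 1 kb (exact permutation p = 0.59375) and turned to −0.17 beyond (exact permutation p = 0.03125). Within 500 bp the exon and gene-end medians were 6.77 and 7.01 CPM in KO, and 6.90 and 6.70 CPM in WT. Between 500 and 1000 bp they were 4.14 and 5.15 CPM in KO, and 3.64 and 4.77 CPM in WT. Between 1000 and 5000 bp they were 1.93 and 2.70 CPM in KO, and 1.93 and 2.73 CPM in WT. Between 5000 and 10000 bp they were 1.73 and 2.17 CPM in KO, and 1.70 and 2.29 CPM in WT. Between 10000 and 50000 bp they were 2.35 ± 0.286 and 2.28 ± 0.0972 CPM in KO. In WT they were 2.24 ± 0.109 and 2.18 ± 0.211 CPM. The differences in that bin were smaller than these SDs and were reversed in KO replicate 3 and WT replicate 1. Past 50000 bp they were 3.47 and 2.92 CPM in KO, and 3.46 and 2.75 CPM in WT. Against all 21006 intron windows the difference was −0.08 ± 0.0674 (exact permutation p = 0.125) and did not hold up. Of the 1672 windows 733 lay within 1 kb of the nearest start site, whereas 1901 of the 21006 intron windows did.

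At like distances up to 50 kb, exon windows had less H3K27ac than intron windows. Within 500 bp the medians were 6.77 ± 0.418 CPM in exon and 5′ UTR windows and 8.23 ± 1.06 CPM in introns of KO, and 6.90 and 8.30 CPM in those of WT. Between 500 and 1000 bp they were 4.14 and 7.20 CPM in KO, and 3.64 and 7.24 CPM in WT. The log2 difference within 1 kb was −0.30 (exact permutation p = 0.03125). The 939 exon and 5′ UTR windows beyond 1 kb stood below the 19105 intron windows there by a log2 difference of −0.57 ± 0.0845 in 6 of 6 libraries, 0.672-fold (exact permutation p = 0.03125, adjusted 0.0391). Mean input was lower in these exon windows as well, 0.630 against 0.794 CPM in KO and 0.710 against 0.896 CPM in WT. Over the input of the same replicate number the log2 difference was −0.44 (exact permutation p = 0.03125). Between 1000 and 5000 bp the medians were 1.93 ± 0.286 CPM in exons and 4.29 ± 0.396 CPM in introns of KO, and 1.93 ± 0.178 and 4.11 ± 0.163 CPM in those of WT. Between 5000 and 10000 bp they were 1.73 CPM in exons and 3.59 CPM in introns of KO, and 1.70 and 3.54 CPM in those of WT. Past 50000 bp the order turned over. There 77 exon windows had 3.47 ± 1.07 CPM and 3799 intron windows 3.04 ± 0.356 CPM in KO, a log2 difference over both genotypes of 0.14 that did not pass the exact permutation test (p = 0.15625). The distance bins and the value within 1 kb were chosen after seeing the data.

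**Figure D2:**
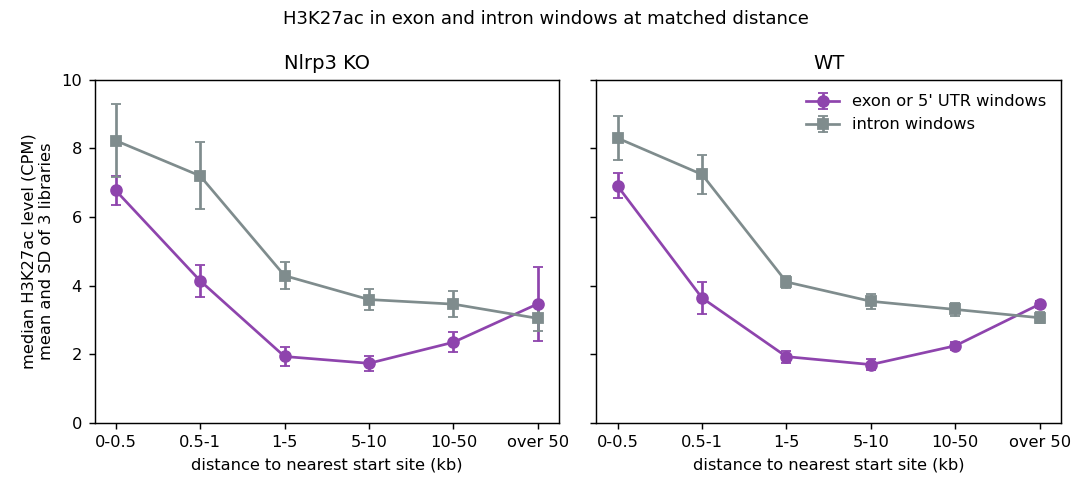
Median H3K27ac level (CPM) against distance to the nearest start site in kb, for exon and 5′ UTR windows (purple) and intron windows (grey) of both lists, in KO (left) and WT (right). Points are the mean and error bars the SD of 3 libraries. Exon windows lie below intron windows up to 50 kb (1.93 against 4.29 CPM at 1 to 5 kb in KO) and not past 50 kb.

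H3K27ac was set against input next. The median ratio of H3K27ac to input CPM, with 0.5 added to both, was 3.89 in KO and 3.59 in WT. It was 6.65 in KO and 6.22 in WT at 5′ UTRs, and 2.48 in KO and 2.30 in WT at inner exons. Without a filter on low counts edgeR called 1011 windows higher than input in KO (60.5%, against 55.8% of all windows tested) and 957 in WT (57.2%, against 52.5%). All windows tested include those in 1 site list only. Among windows of both lists the shares in KO were 61.5% of introns, 79.7% of promoters and 51.4% of gene ends. In WT they were 57.7%, 76.6% and 49.4%. Of the 1672 windows edgeR called 27 lower than input in KO and 28 in WT. With the filter, which a window passed mainly through its H3K27ac tags, 836 of 837 were called higher in KO (99.0% of all windows tested) and 800 of 804 in WT (98.6%). These counts rest on scaling by total tags. Under TMM scaling, which takes most windows as equal in H3K27ac and input, 107 of the 837 were called higher in KO (10.8% of all windows tested) and 111 of the 804 in WT (9.50%).

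At the low end were accessible sites with almost no H3K27ac. A window in exon 34 of Mroh2a had 2, 6 and 0 H3K27ac tags in KO and 0 in each WT library, with 16, 5 and 5 input tags in KO and 4, 8 and 3 in WT. Exon 17 of Frem2, an extracellular matrix gene, had 0, 0 and 2 tags in KO and 0 in each WT library. Exon 3 of Mboat4, the ghrelin acyltransferase, had 0 in each KO library and 0, 0 and 1 in WT. Between 167 and 295 of the 1672 windows held no tag in a KO library, and between 208 and 331 in a WT library.

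The highest levels lay at starts of genes. Zfp869, a zinc finger gene, had 74.4, 78.2 and 45.1 CPM in KO and 66.5, 44.3 and 49.1 CPM in WT. Agmo, which cleaves ether lipids, had 56.9, 51.1 and 49.9 CPM in KO and 66.3, 60.5 and 58.8 CPM in WT. Blnk, a signalling adaptor first described in B cells, had 54.3, 55.9 and 41.0 CPM in KO and 66.8, 44.7 and 55.0 CPM in WT. The genotypes overlapped at Zfp869 and Blnk and did not at Agmo, where the log2 fold change was −0.23 (SE 0.17, edgeR quasi-likelihood adjusted p = 0.998). The RNA-binding protein gene Unk (57.4 CPM over the 6 libraries), Ssu72 (52.6 CPM), the peroxisomal oxidase Acox3 (52.3 CPM) and Dhrsx (45.9 CPM), of a dehydrogenase family, completed the group of first-exon and 5′ UTR windows. Short genes that are 1 or 2 exons long formed another group. The small GTPase Rhob had 40.2, 59.3 and 54.0 CPM in KO and 38.6, 45.4 and 52.4 CPM in WT, and Zfp36, which encodes the mRNA decay factor tristetraprolin, 47.6 ± 4.18 CPM in KO and 42.1 ± 6.53 CPM in WT (SD, n = 3 each). The AP-1 subunits Junb and Jun have 1 exon each and were named from the myeloid transcription factor list. They had 43.1 ± 4.83 and 33.1 ± 2.39 CPM in KO, and 44.5 ± 8.43 and 37.8 ± 1.65 CPM in WT.

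Far from any start site, an exon of Cables1 reached the range of the gene-start windows above (49.7 CPM over the 6 libraries, against 45.9 CPM at Dhrsx). The other windows named in this group were lower, at 40.5 CPM or less. Exon 9 of Cables1, a gene for a kinase adaptor, had 53.6, 56.7 and 50.7 CPM in KO and 49.1, 39.4 and 48.4 CPM in WT, at −100855 bp from the nearest start site, that of a microRNA gene (minus for upstream). Its KO libraries all lay above its WT libraries, and its log2 fold change was 0.24 (SE 0.18, edgeR adjusted p = 0.998). Exon 21 of Rbm5, a splicing regulator (chr9:107743762-107744762), had 43.5, 46.5 and 40.0 CPM in KO and 36.0, 32.7 and 44.2 CPM in WT. The other 6 of the 8 highest windows beyond 5 kb lay in Bend6 (38.5 CPM over the 6 libraries), a BEN-domain gene, in exon 58 of the ubiquitin ligase gene Mycbp2 (34.6 CPM), in the arrestin gene Sag (33.7 CPM), in the interferon gamma receptor subunit Ifngr2 (32.8 CPM), in exon 10 of Dlst (32.5 CPM), a subunit of the ketoglutarate dehydrogenase complex, and in Tbc1d31 (31.2 CPM). In Bend6, Mycbp2, Sag, Ifngr2, Dlst and Tbc1d31 the KO and WT libraries overlapped.

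Windows beyond 5 kb were also compared with the promoter of the gene whose exon they lay on, taking its strongest promoter window in both lists. Of 623 such windows 366 had one. Over these 366 the median was 3.39 CPM in the exon window and 7.70 CPM at the promoter. The exon window was the higher in 102 of them (27.9%), and in 56 of them in 6 of 6 libraries. An intron window was the higher in 3639 of 10830 (33.6%). The exon windows named next all lay above their promoter, and those of Papss1 and Thada were chosen after their values were seen. Rbm5 had 43.3 CPM in exon 21 and 15.2 CPM at its promoter in KO, and 37.6 and 17.3 CPM in WT. Papss1, which makes the sulfate donor PAPS, had 23.7 CPM in its last exon and 3.82 CPM at its promoter in KO, and 28.5 and 4.63 CPM in WT. Exon 30 of Thada, whose nearest start site is that of the mRNA decay factor Zfp36l2 at −84792 bp, had 30.9 CPM against 6.22 CPM at the Thada promoter in KO, and 27.2 against 6.85 CPM in WT.

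**Figure D3:**
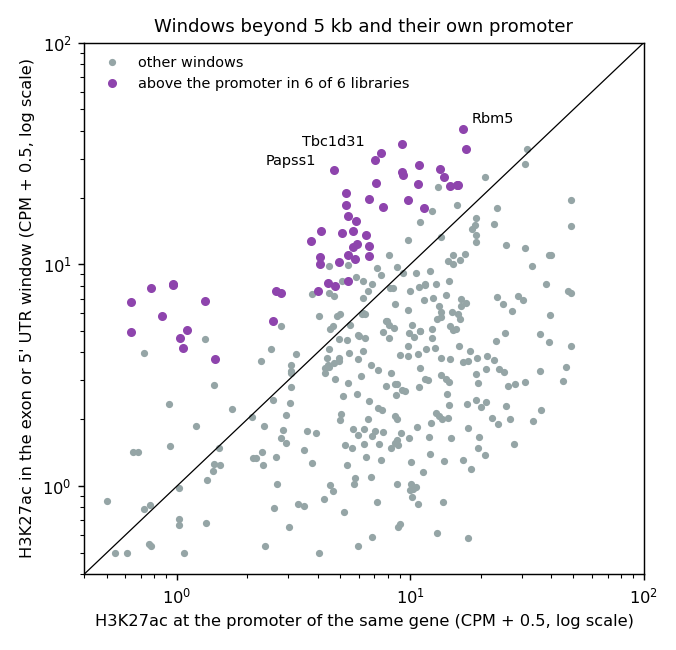
H3K27ac level of 366 exon and 5′ UTR windows beyond 5 kb from a start site (vertical axis) against that of the strongest promoter window of the same gene (horizontal axis), as mean CPM over 6 libraries plus 0.5 on log scales. The 56 windows above their promoter in 6 of 6 libraries are purple, and the line marks equality.

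The gene that holds an exon was often not the gene of the nearest start site. Of 1663 windows whose transcript matched a gene in the RefSeq table, 360 (21.6%) lay in a gene other than the nearest one, 339 of them beyond 1 kb. A set of 3 exons of Med12l, a Mediator subunit gene, shows this, and was chosen after its values were seen. The genes of the ADP receptor P2ry12 and of P2ry13 lie within Med12l, and both are markers of homeostatic microglia. Exon 36 of Med12l, at −2061 bp from the P2ry12 start site, had 27.8, 30.03 and 20.5 CPM in KO and 25.5, 16.5 and 17.5 CPM in WT. Exon 30 had 12.4 ± 6.47 CPM in KO and 13.6 ± 3.35 CPM in WT, and exon 19, nearest P2ry13, 17.8 ± 4.49 CPM in KO and 17.1 ± 8.64 CPM in WT (SD, n = 3 each). The genotypes overlapped at each of these 3 exons. Among 1512 genes holding a window, 1387 held 1, 107 held 2 and 18 held 3 or more, up to 7 in Mroh2a.

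Between genotypes, no exon or 5′ UTR window passed the test. Of the 1672 windows 1041 had enough tags, and edgeR called 0 of them at an adjusted p under 0.05, against 24 of 40370 windows overall (0.0595%). At an unadjusted p under 0.05 there were 44 (4.23%), 19 higher and 25 lower in KO, against 4.69% of all windows. In 97 windows (9.32%) the 3 KO libraries lay all above (49) or all below (48) the 3 WT libraries, against 10.1% of all windows. The median log2 fold change was 0.01 in these windows and 0.00 in all, and the 5th to 95th percentiles ran from −0.82 to 0.82 here and from −0.89 to 0.90 in all. DESeq2 and edgeR without the filter each called 1 of 1653 tested, that of Cd300c2, against 70 of 67051 windows overall with DESeq2 (0.104%) and 68 with edgeR (0.101%). The exon and 5′ UTR share of all H3K27ac tags was 1.12 ± 0.0931% in KO and 1.13 ± 0.0811% in WT (exact permutation p = 0.9, two-sided), and that of input tags 0.104 ± 0.00436% in KO and 0.118 ± 0.00611% in WT (exact permutation p = 0.1, the smallest that 3 against 3 allows).

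**Figure D4:**
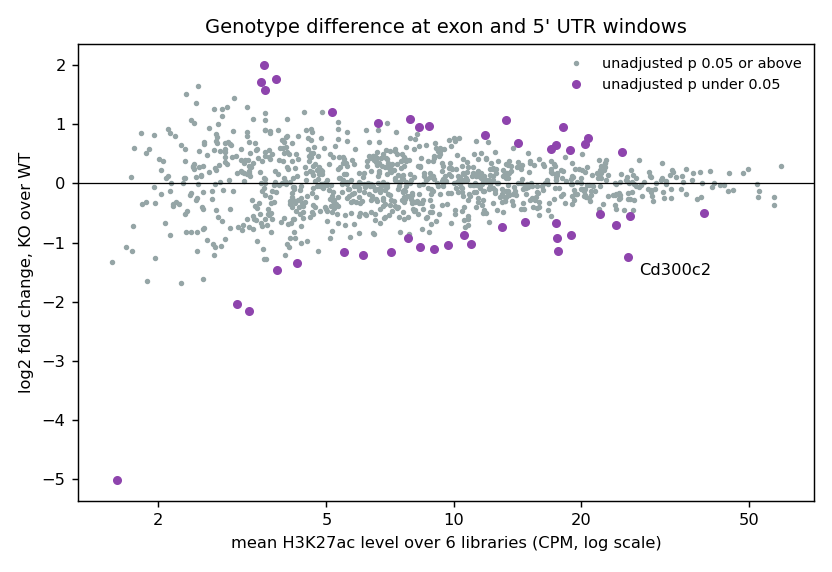
Log2 fold change, KO over WT, of the 1041 tested exon and 5′ UTR windows against their mean H3K27ac level in CPM (log scale). Purple points have an unadjusted p under 0.05 (44 windows), and the point near −5 is Zfp652, with 1 KO tag in all.

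Cd300c2, a gene of the CD300 receptors of myeloid cells, had the smallest p. Its 5′ UTR window (chr11:115001152-115002152) had 88, 94 and 42 tags in KO and 161, 139 and 147 tags in WT, or 15.5 ± 6.09 CPM in KO and 36.3 ± 6.28 CPM in WT (SD, n = 3 each). Every KO library lay below every WT library, and KO replicate 3 was the lowest. The log2 fold change was −1.24 (SE 0.26, edgeR quasi-likelihood adjusted p = 0.0813). DESeq2 gave −1.24 with an adjusted p of 0.0017, edgeR without the filter an adjusted p of 0.00265, and leaving out single libraries −1.384 to −1.0005 with edgeR adjusted p from 0.0865 to 0.490.

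The other windows with the smallest p below WT were in unrelated genes. Sppl2a, an intramembrane protease that cuts the invariant chain of antigen presentation, had 14.3, 13.9 and 11.8 CPM in KO and 25.8, 20.3 and 27.9 CPM in WT (log2 fold change −0.88, SE 0.26, edgeR adjusted p = 0.629). The 5′ UTR of Myc, the growth-promoting transcription factor, had 7.72, 6.76 and 7.10 CPM in KO and 12.1, 12.02 and 20.3 CPM in WT (−1.03, SE 0.36). That of Etv1, an ETS factor, had 15.2, 8.75 and 12.4 CPM in KO and 16.9, 25.8 and 26.2 CPM in WT (−0.93, SE 0.30). Exon 12 of Snx14, a sorting nexin, had 12.1, 11.1 and 9.74 CPM in KO and 17.4, 18.03 and 37.6 CPM in WT, where WT replicate 3 alone was far above the rest (−1.14, SE 0.31, edgeR adjusted p = 0.438; −0.71 at its smallest with a library left out). The last exon of Zfp652, a zinc finger gene, held 1, 0 and 0 tags in KO and 9, 12 and 18 in WT. Its ratio of KO to WT was 0.0220, with a 95% exact interval of 0.000544 to 0.130 that covers counting error only.

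Of the 49 windows without overlap that lay higher in KO none passed the test, and the 6 with the smallest p are given. The 5′ UTR of Mynn, a zinc finger gene, had 23.6, 25.9 and 28.8 CPM in KO and 17.4, 13.6 and 15.6 CPM in WT (log2 fold change 0.77, SE 0.26, edgeR adjusted p = 0.821). That of Zc3hav1, the antiviral protein ZAP, had 30.5, 26.3 and 31.5 CPM in KO and 21.7, 20.7 and 19.4 CPM in WT (0.52, SE 0.24). Exon 10 of Jmjd1c, of the JmjC demethylase family, had 30, 33 and 22 tags in KO and 8, 6 and 7 in WT (1.77, SE 0.65, edgeR adjusted p = 0.963). The other 3 exon windows of Jmjd1c, chosen after their values were seen, had log2 fold changes of 0.12, 0.25 and −0.02. Exon 6 of Ppard, a nuclear receptor for fatty acids, had 10.8 ± 1.78 CPM in KO and 5.02 ± 0.633 CPM in WT (1.09, SE 0.41). Exon 3 of Ppcdc, an enzyme of coenzyme A synthesis, had 15.1 ± 1.70 CPM in KO and 8.58 ± 1.37 CPM in WT (0.82, SE 0.34). The last exon of the kinase gene Mast4 had 3.75, 3.98 and 9.34 CPM in KO and 1.61, 2.00 and 0.709 CPM in WT (2.01, SE 0.72), with KO replicate 3 alone above 4 CPM.

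**Figure D5:**
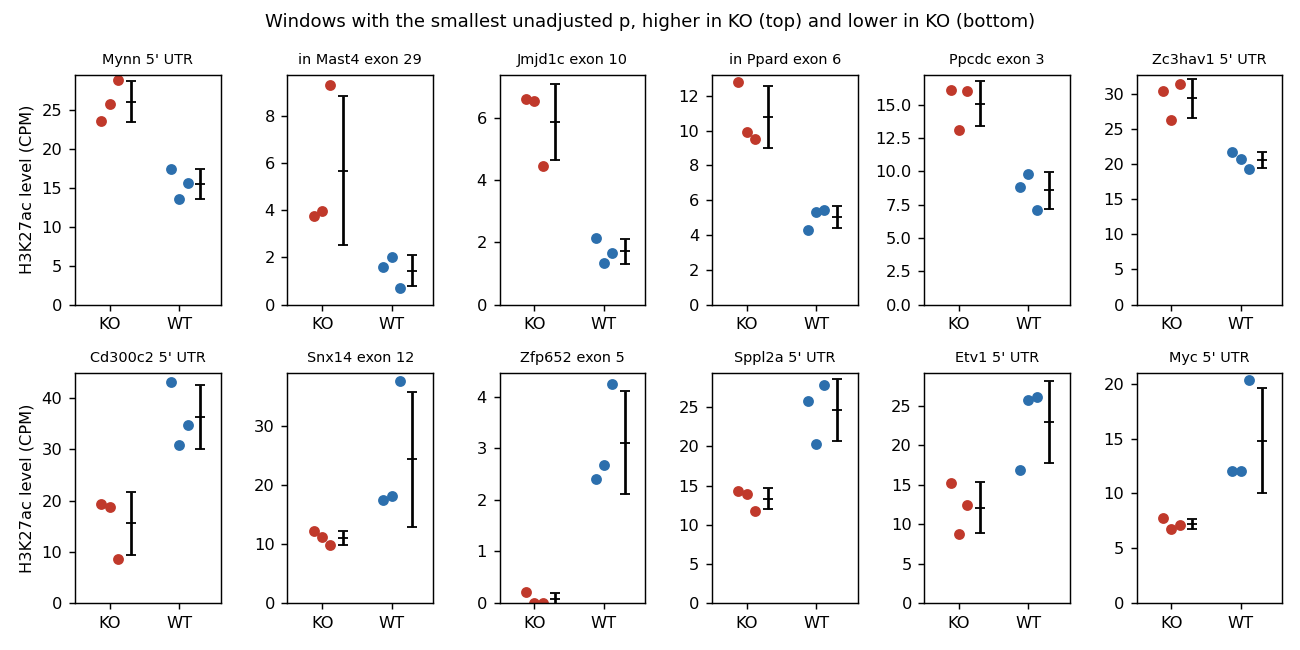
H3K27ac level (CPM) in each KO (red) and WT (blue) library at the 12 windows with the smallest unadjusted p among those whose genotypes did not overlap, 6 higher in KO (top) and 6 lower in KO (bottom). Dashes and error bars are the mean and SD of 3 libraries. None had an edgeR adjusted p under 0.05; that of Cd300c2 was 0.0813.

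Genes of the inflammasome and of microglial identity were read from lists, by nearest gene, and no list had a called window. Of 28 inflammasome and IL-1 genes 3 had an exon or 5′ UTR window, 4 windows in all, with a median log2 fold change of −0.02 over the 3 tested. Casp1 had 19.0, 11.7 and 19.1 CPM in KO and 16.1, 14.2 and 2.83 CPM in WT, where WT replicate 3 was far below the rest. Il18 had 13.2, 10.5 and 16.0 CPM in KO and 11.5, 15.1 and 14.2 CPM in WT. The 5′ UTR of Pycard had 3.53, 2.39 and 0.812 CPM in KO and 5.90, 2.89 and 5.67 CPM in WT. The genotypes overlapped at these 3 windows. Of 30 homeostatic genes 10 had a window (12 windows, 11 tested, 6 with a positive log2 fold change, median 0.06), among them the growth factor receptor Csf1r with 17.4 ± 1.18 CPM in KO and 21.2 ± 1.46 CPM in WT, without overlap (log2 fold change −0.28, SE 0.26, edgeR adjusted p = 0.998). Of 29 disease-associated genes 4 had a window (2 tested, median log2 fold change 0.38). The protease Ctsl had 18.7 ± 4.202 CPM in KO and 19.3 ± 3.92 CPM in WT, and Cd63, a tetraspanin, 3.46 ± 1.75 CPM in KO and 2.06 ± 0.646 CPM in WT.

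Of 42 myeloid transcription factor genes 14 had a window (17 windows). Of the 12 tested 3 had a positive log2 fold change, with a median of −0.18, and 1 had an unadjusted p under 0.05. That one was Cebpb, a factor of myeloid inflammatory genes, with 21.2, 22.7 and 17.7 CPM in KO and 12.1, 14.9 and 13.7 CPM in WT (log2 fold change 0.59, SE 0.28, edgeR adjusted p = 0.998). Every KO library of Cebpb lay above every WT library. Egr1, an immediate early factor like Jun and Junb, had 3 exon windows with 0.541 to 4.18 CPM over the 6 libraries. Of 40 phagocytosis and lysosome genes 5 had a window (5 windows tested, median log2 fold change 0.06). The lysosomal hexosaminidase subunit Hexa had 27.7 ± 6.56 CPM in KO and 25.6 ± 7.06 CPM in WT, and the Fc receptor Fcgr1 22.6 ± 7.90 CPM in KO and 25.5 ± 2.47 CPM in WT.

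Metabolic genes were listed because the series title names glutamine breakdown. Of 32 glutamine and glutamate genes 4 had a window (5 tested, 2 positive, median log2 fold change −0.14). The 5′ UTR of Slc1a3, the glutamate transporter GLAST, had 33.5, 6.56 and 31.1 CPM in KO and 7.25, 7.12 and 23.2 CPM in WT (0.95, SE 0.44, edgeR adjusted p = 0.998). KO replicate 2 and WT replicates 1 and 2 were low there and the other 3 libraries high, so the genotypes overlapped. With single libraries left out the log2 fold change was 0.60 without KO replicate 3 at its lowest and 1.72 without WT replicate 3 at its highest. The summed promoters of 5 astrocyte markers were 41.7, 13.1 and 35.5 CPM in KO and 18.8, 20.3 and 35.4 CPM in WT. Slc1a3 itself was the highest of them (14.3 CPM over the 6 libraries), so this sum is not independent of the Slc1a3 value. The part of astrocytes in the Slc1a3 value was not tested. The last exon of Slc1a3 had 25.1 ± 3.496 CPM in KO and 27.8 ± 7.14 CPM in WT (−0.14, SE 0.24), and Slc3a2, a heavy chain of amino acid transporters, 14.8 ± 2.10 CPM in KO and 16.8 ± 3.87 CPM in WT. Of 32 TCA cycle and ketoglutarate genes 3 had a window (3 tested, median log2 fold change 0.14). Suclg1, a succinyl-CoA ligase subunit, had 18.1, 17.7 and 18.7 CPM in KO and 12.9, 10.9 and 17.5 CPM in WT, without overlap (0.42, SE 0.29, edgeR adjusted p = 0.998), and the aconitase Aco1 6.55 ± 0.490 CPM in KO and 7.44 ± 1.90 CPM in WT. Of 44 dioxygenase and histone acetylation genes 8 had a window (7 tested, 4 positive, median 0.06). Jmjd1c, of the JmjC demethylase family, was not on this list, and its exon 10 window (log2 fold change 1.77) is given above. The H3K27 demethylase Kdm6b had 28.9 ± 4.86 CPM in KO and 34.3 ± 5.95 CPM in WT, and the demethylase Phf8 16.95 ± 1.26 CPM in KO and 13.4 ± 1.16 CPM in WT, without overlap (log2 fold change 0.34, SE 0.29).

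In each list of markers of other cells 0 to 3 genes had a window. The lists above ran from 3 of 32 TCA cycle and 3 of 28 inflammasome genes to 10 of 30 homeostatic genes. These counts do not measure how many other cells were present. Camk2a, the only neuron marker of 16 with one, had 0.662, 0.199 and 2.23 CPM in KO and 1.34, 2.23 and 0.945 CPM in WT. Of 16 oligodendrocyte markers Mag had 2.78 ± 1.74 CPM in KO and 1.84 ± 1.68 CPM in WT, and Mbp 2, 0 and 0 tags in KO and 8, 9 and 0 in WT. Of 18 monocyte and neutrophil markers Vim had a window, with 2.15 ± 0.727 CPM in KO and 2.35 ± 1.57 CPM in WT. Of 15 border macrophage markers 3 had one. Stab1 had 13.4 ± 3.52 CPM in KO and 11.4 ± 4.01 CPM in WT. The window nearest Lyve1, in an exon of Mrvi1, had 2.10 ± 1.82 CPM in KO and 5.002 ± 3.59 CPM in WT. Apoe, also on the disease-associated list, had 1.80 ± 0.543 CPM in KO and 0.565 ± 0.491 CPM in WT, without overlap. It held 9, 6 and 11 tags in KO and 3, 4 and 0 in WT, too few to pass the filter. Of 15 astrocyte markers Slc1a3 alone had a window, and of the 15 endothelial and mural and the 15 lymphocyte markers 0 had one.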

How the data were processed

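H3K27ac and input libraries came in 4 groups of 3, grouped by title. The authors deposited raw tag counts, 1 per library and window. Per the file headers, HOMER counted them, unadjusted, on mm10 in 1000 bp windows around sites from a directory named ATAC. Per the submitters' processing notes, DESeq2 was also used. A second, scaled table was not used. The aligner, duplicate handling and site caller were not given in the sources used here. Genotypes were compared over all 67822 windows with edgeR 4.0.16 (TMM, filterByExpr, quasi-likelihood, threshold 0.05), tested on simulated data, and H3K27ac with input by total tags. SE is derived from the fold change and its F statistic. Levels are CPM on total tags (median 13 to 20 H3K27ac tags per window described here). Overlapping windows share tags: 740 of the 1672 overlap another, 362 of them a promoter window. Named were the 6 smallest p per direction without overlap, the 10 highest, the 8 highest beyond 5 kb, up to 3 plus the smallest p per list and the 4 lowest over input, of which 1 is not reported here. Members and the 15 lists were chosen with earlier results of these data known. Deviations of same-numbered KO and WT libraries had r from −0.001 to 0.004, and unlike numbers reached 0.00793. With so few tags per window such r cannot decide whether numbers pair KO with WT, and the main comparison used no pairing. Same-numbered H3K27ac and input libraries had r of 0.0153, 0.00732 and 0.00999 in WT, where unlike numbers reached 0.0036. In KO these r were 0.00306, 0.00377 and 0.0102, where unlike numbers reached 0.00856. Whether they share a source was not tested.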

Additional observations from a re-analysis of the deposited data

How the results depend on the processing

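In the comparisons by position, leaving out 1 of the 6 libraries leaves 5, for which the smallest exact permutation p is 0.0625. The differences then ranged over −0.83 to −0.80 against promoters, 0.35 to 0.39 against gene ends, −0.61 to −0.56 against introns beyond 1 kb and 1.37 to 1.41 for first against later exons, each with an exact permutation p of 0.0625. Against all introns the difference passed with means (−0.10) and with non-overlapping windows (−0.29), both at an exact permutation p of 0.03125, and turned to 0.027 over the input of the same replicate number (replicate block; exact permutation p = 0.4375). Split at 1 kb after seeing the data, it was −0.30 within and −0.57 beyond (both exact permutation p = 0.03125), and 0.14 past 50000 bp; against gene ends it was 0.049 within 1 kb (exact permutation p = 0.59375) and turned to −0.17 beyond (exact permutation p = 0.03125). The cause was not tested. DESeq2 and edgeR without a filter each called 1 of these windows between genotypes and 70 and 68 of all windows, and the other settings 0 and 10 to 29 of all, the replicate block included; TMM gave 107 windows over input in KO and 111 in WT. The H3K27ac share difference, −0.00807 percentage points, ran from −0.0527 to 0.0456 with single libraries left out and was positive without KO replicate 3, WT replicate 1 or WT replicate 3. The last-exon window of Slc1a3 ranged from −0.32 to 0.034 on the log2 scale, positive without WT replicate 1. Over input the replicate block called 836 windows higher in KO, as without it, and 799 in WT against 800. Depth limits these windows: 631 of 1672 had too few tags to be tested between genotypes.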

Other observations

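Nlrp3 lies on chromosome 11 (start-site window chr11:59542134-59543134), as do 161 of the 1672 windows. A segment of that chromosome that does not hold Nlrp3, 110 to 120 Mb, was looked at after values were seen. It holds Cd300c2 and 23 of the windows in all. Of the 17 tested there, 2 had an unadjusted p under 0.05 (11.8%), both lower in KO: Cd300c2 and the inhibitory receptor Cd300a, with 18.2 CPM in KO and 26.1 CPM in WT (log2 fold change −0.52). Over windows of every annotation in that segment the share was 42 of 401 (10.5%), with 4 called, against 1706 of 37127 (4.60%) on the other chromosomes, with 17 called. On chromosome 11 outside the segment it was 146 of 2842 (5.14%), with 3 called, the Nlrp3 promoter windows among them. On all of chromosome 11, 5 of 106 tested exon and 5′ UTR windows (4.72%) had such a p, 1 higher and 4 lower in KO, and outside the segment 3 of 89 (3.37%). On the other chromosomes 39 of 935 tested exon and 5′ UTR windows (4.17%) had an unadjusted p under 0.05.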
